A study of Mus musculus with 19 samples.

Results

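The loci of 5 genes tied to pluripotency were followed here through deposited lists of 5-hydroxymethylcytosine (5hmC) peaks: Pou5f1, Sox2 with its distal control region, and the cluster of Gdf3, Dppa3 and Nanog. Members were all deposited peaks that overlapped 3 windows of the mm9 mouse genome by at least 1 bp: chr17:35630000-35660000 (Pou5f1, 30 kb), chr3:34535000-34670000 (Sox2, 135 kb) and chr6:122540000-122675000 (Nanog cluster, 135 kb). They numbered 608 of the 1601520 peaks in 18 lists, with 82 at Pou5f1, 250 at Sox2 and 276 in the Nanog cluster. The series asked how 5hmC changes while stalled reprogramming intermediates convert to induced pluripotent stem cells (iPSCs). Its pre-iPSCs, cells derived from mouse embryonic fibroblasts, were cultured with ascorbic acid at 50 µg/mL and 2i (CHIR-99021, which inhibits GSK3, and PD-0325901, which inhibits MEK), and DNA was taken at days 0, 2 and 10. Wild-type (WT) cells gave 3 libraries per day, A, B and C. Knockout (KO) cells gave 2 per day, KO1 and KO2, and which gene was deleted, and whether it is the same in both lines, does not appear in the labels. V6.5 mouse embryonic stem cells (mESCs) gave 1 library each at 0, 12 and 72 h, and an input library had no list. The treatment label is AA+2i for every library except the input, day 0 included. Whether the pre-iPSCs are a single clone, and whether replicates came from separate cultures, is not given in the sources used here, so every p-value reflects variation among these libraries alone, which may be technical. The lists hold no expression values, so the labelled cell types could not be checked against marker genes.

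5hmC is made when TET enzymes oxidise 5-methylcytosine, mostly at CpG sites, and it is an intermediate of active demethylation that can also be diluted by DNA replication. Ascorbic acid is a cofactor that raises TET activity. Pou5f1 encodes OCT4, which binds DNA together with SOX2 at many enhancers of pluripotent cells, and NANOG is a homeodomain factor that stabilises the same state. Dppa3 encodes a protein that protects maternal methylation in the early embryo, and Gdf3 encodes a ligand of the TGF-beta family. In RefSeq's order of protein-coding genes, Gdf3, Dppa3 and Nanog are direct neighbours, flanked by Apobec1 and Slc2a3. Pou5f1 lies between H2-Q10 and Tcf19, and Sox2 between Dnajc19 and Atp11b.

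The 250 bases before the RefSeq start of Pou5f1, Sox2 and Nanog are shown because CpG sites, in capitals, are the usual substrate of the mark, and the 3 promoters differ widely in how many they hold. All lie on the + strand of GRCm38.p6, at chr17:35505782-35506031, chr3:34649745-34649994 and chr6:122707239-122707488. These positions are not on the scale of the mm9 peaks, so no peak could be placed on them.
Pou5f1: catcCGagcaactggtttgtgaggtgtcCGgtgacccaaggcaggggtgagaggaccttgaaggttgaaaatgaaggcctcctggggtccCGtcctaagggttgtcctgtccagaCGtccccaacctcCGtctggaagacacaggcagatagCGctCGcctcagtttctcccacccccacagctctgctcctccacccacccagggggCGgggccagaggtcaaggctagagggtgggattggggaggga
Sox2: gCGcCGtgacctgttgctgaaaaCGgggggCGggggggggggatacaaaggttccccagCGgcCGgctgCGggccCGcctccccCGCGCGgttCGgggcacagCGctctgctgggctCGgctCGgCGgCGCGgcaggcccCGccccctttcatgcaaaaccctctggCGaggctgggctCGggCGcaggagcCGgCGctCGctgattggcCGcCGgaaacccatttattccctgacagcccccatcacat
Nanog: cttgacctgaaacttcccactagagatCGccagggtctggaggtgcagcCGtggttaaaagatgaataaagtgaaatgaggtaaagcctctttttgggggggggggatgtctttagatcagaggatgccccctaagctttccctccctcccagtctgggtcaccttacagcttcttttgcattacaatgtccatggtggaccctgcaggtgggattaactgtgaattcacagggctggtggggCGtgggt
The Sox2 promoter held 27 CpG sites and 72.0% G or C, and 8.56% of the 32851 RefSeq promoters held at least as many CpG sites. Pou5f1 held 8 (43.0% of promoters with at least as many) and Nanog 3 (71.0%), beside a median of 6. The motif ATGCAAA, searched on both strands, matched once in the Sox2 and once in the Nanog promoter and not in that of Pou5f1, and 4.12% of all promoters held it. Dppa3 and Gdf3 had no entry of this kind.

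Each pre-iPSC library had its own list of 55134 to 161004 peaks, and the mESC lists held 24130 to 33576. Because longer lists cover more of any locus, coverage was measured under the 55130 strongest peaks of each library by the authors' -log10 p, the length of the shortest pre-iPSC list on chromosomes 1 to 19 and X. These are called the strongest peaks below, and coverage is in bp. Equal peak numbers did not equalise total coverage. In WT A, B and C these peaks covered 25.0, 33.9 and 20.7 Mb at day 0, 30.0, 30.5 and 27.0 Mb at day 2, and 21.8, 21.4 and 17.6 Mb at day 10. In KO1 and KO2 they covered 28.7 and 25.5 Mb, then 33.9 and 25.2 Mb, then 31.5 and 25.1 Mb. Coverage of whole loci is given unscaled, and windows were scaled for the limma fits. Read depth relative to the input, read from the steps in the deposited fold values, ran from 1.03 to 1.67 in 14 pre-iPSC libraries. No such value could be read for WT D0 C or for the mESC lists. A locus without a peak is a locus where no peak was called, which does not show that 5hmC is absent.

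The 3 loci together carried the most peaks at day 2 in WT cells and the fewest at day 10. The WT libraries A, B and C held 24, 23 and 25 peaks at day 0, 74, 77 and 72 at day 2, and 19, 18 and 6 at day 10. All 3 day 2 libraries lay above every other WT library, and those of day 10 lay below those of day 0. KO1 held 22, 69 and 50 peaks at days 0, 2 and 10, and KO2 held 22, 45 and 37. Both KO libraries thus held more peaks at day 10 than any WT library of that day. Their whole lists were also longer, at 112303 and 111281 peaks against 86465, 77530 and 55134 in WT A, B and C. Per Mb, the loci held 4.04, 5.12 and 5.97 times the genome's density of peaks in the WT day 2 libraries, against 1.75 to 3.55 times at day 0 and 0.957 to 2.04 times at day 10. In KO1 and KO2 this ratio was 3.17 and 2.23 at day 0, 4.38 and 3.47 at day 2, and 3.92 and 2.92 at day 10. Relative depth was 1.61, 1.35 and 1.24 in WT A, B and C at day 2 and 1.37, 1.64 and 1.03 at day 10. The WT library with the fewest of these peaks, C at day 10, also had the lowest depth read. The part of depth in these counts was not tested. The libraries come from bulk cells, so a mark in fewer cells and less of it per cell cannot be told apart.

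At Pou5f1, coverage was highest at day 2 and no strongest peak was left in WT cells at day 10. Strongest peaks covered 1313, 1236 and 866 bp in WT A, B and C at day 0 (1138 ± 239 bp, SD, n = 3) and 1897, 4341 and 1737 bp at day 2 (2658 ± 1459 bp, SD, n = 3), and 0 bp in each library at day 10. The 3 days did not overlap, and the exact permutation test of F over the days, two-sided, gave p = 0.00357 (n = 9), the smallest it can give. Each pair of days gave an exact permutation p of 0.1, the smallest for 3 against 3. From day 0 to day 2 the difference on the scale of log2(bp + 200) was 1.00, and 11.9% of 50283 genome tiles of 30 kb had a larger one. Groups did not overlap in this direction in 11.6% of tiles, and day 10 lay below day 2 and below day 0 without overlap in 19.6% and 20.5%. With all deposited peaks, the locus kept 332, 0 and 0 bp in WT cells at day 10.

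The highest -log10 p of any peak at Pou5f1 was found in a day 0 library, WT D0 A. The region chr17:35639425-35640660, 9.42 kb from the start of the locus, had a peak in all 5 day 0 libraries, in all 5 day 2 libraries and in both KO day 10 libraries, but in no WT day 10 library. Its -log10 p was 45.9, 31.5 and 17.2 in WT A, B and C at day 0 and 11.0, 14.3 and 8.72 at day 2. These values come from separate lists, and the merged peaks overlap only in part. The peak was chr17:35639702-35640188 in WT D0 A and chr17:35640052-35640660 in WT D2 A. In WT D0 A, 1.73% of the peaks in that list were stronger. By contrast, the coverage added at day 2 lay further in. In the 10 kb window chr17:35640001-35650000, strongest peaks covered 450, 167 and 118 bp at day 0, 1897, 3401 and 1506 bp at day 2, and 0 bp in all 3 WT libraries at day 10. Windows were tested only at a mean coverage of at least 500 bp, which this one reached only through day 2. Its calls that involve day 2 are therefore descriptions. Coverage of this window rose from day 0 to day 2 by 2.30 on the log2 scale (SE 0.39, limma with Benjamini-Hochberg adjustment over 14776 windows, adjusted p = 0.00461). It then fell to 0 bp at day 10 (limma, adjusted p = 0.000144), also against day 0 (limma, adjusted p = 0.0447). This last call was lost without any 1 of the WT libraries D0 A, D10 A, D10 B or D10 C, with limma adjusted p between 0.086 and 0.137.

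KO cells did not show the day 2 coverage of Pou5f1 among their strongest peaks. At day 0, KO1 and KO2 had 2248 and 641 bp, on either side of the WT range. At day 2 they had 342 and 0 bp, below all 3 WT libraries, with a difference of -3.00 on the log2 scale (exact permutation test, two-sided, p = 0.1, n = 2 and 3, the smallest possible). Under the strongest peaks, 0.0259% of 30 kb tiles had a lower difference, and groups did not overlap in this direction in 7.07% of tiles. With all deposited peaks the difference was -1.61, and 1.01% of tiles had a lower one. The window chr17:35640001-35650000 had 0 bp in both KO libraries at day 2 and was called lower than WT (limma, adjusted p = 0.0398). It reached the mean of 500 bp over all pre-iPSC libraries only through WT day 2, so this call is a description. Of all 15744 windows, 0.0254% were called lower. The call was lost with all deposited peaks (limma, adjusted p = 1.0), with no filter on low windows (limma, adjusted p = 0.112), and without any 1 of the WT libraries D2 A, D2 B or D2 C or without KO2. With all deposited peaks, that window held 3524, 3401 and 2782 bp in WT cells against 1730 and 330 bp in KO1 and KO2. At day 10 neither arm had a strongest peak at Pou5f1. All deposited peaks covered 3713 and 711 bp in KO1 and KO2, against the 332, 0 and 0 bp of WT. The KO lists of that day are longer than the WT lists. With all deposited peaks, KO lay above WT at day 10 without overlap in 27.9% of 30 kb tiles. The median tile difference was 0.42 on the log2 scale.

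The size of the loss at Pou5f1, and its direction against day 0, depended on where the window ended. In the 10 kb that follow it, chr17:35660001-35670000, strongest peaks covered 281, 0 and 807 bp in WT A, B and C at day 0, 3181, 2637 and 2019 bp at day 2, and 2118, 3366 and 2060 bp at day 10. These WT day 10 peaks were among the strong ones of their lists, with a top -log10 p of 40.2, 21.3 and 18.3. KO1 and KO2 had 893 and 0 bp there at day 10. With the window widened by 10 kb on each side, WT day 10 still lay below day 2, with a difference of -1.11 on the log2 scale, and lay above day 0 by 0.59 (exact permutation tests, two-sided, p = 0.1 each, n = 3 and 3). KO minus WT at day 10 was then -2.50 (exact permutation test, two-sided, p = 0.1, n = 2 and 3). This stretch was singled out after its values were seen.

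At Sox2, coverage was again highest at day 2 and lowest at day 10 in WT cells. Strongest peaks covered 2531, 3408 and 4179 bp in WT A, B and C at day 0 (3373 ± 825 bp, SD, n = 3), 8278, 6926 and 9297 bp at day 2 (8167 ± 1189 bp, SD, n = 3) and 2203, 1888 and 1651 bp at day 10 (1914 ± 277 bp, SD, n = 3). No 2 days overlapped, and the exact permutation test of F over the days gave p = 0.00357 (two-sided, n = 9). The difference from day 0 to day 2 was 1.24 on the log2 scale, larger than in all but 5.35% of 15589 tiles of 135 kb. From day 2 to day 10 it was -1.98, and 5.07% of tiles had a lower value. Groups did not overlap in these directions in 12.7% and 25.0% of tiles, and day 10 lay below day 0 in 27.9%.

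The Sox2 regions with peaks in the most libraries lay in 3 places. The region with the highest -log10 p at day 2, chr3:34547106-34548667 and 12.1 kb from the start of the locus, had a -log10 p of 11.0, 25.4 and 18.3 at day 0 and 58.6, 48.7 and 26.2 at day 2 in WT A, B and C. In WT D2 A, 0.110% of the list was stronger. Around 30 kb from the start, chr3:34561694-34563530 and chr3:34563951-34565131 had peaks in the same libraries. Toward the far end, chr3:34653901-34657003 was the longest of the named regions, at 3103 bp. These 4 regions and chr3:34551458-34553307 each had a peak in all 5 day 0, all 5 day 2 and both KO day 10 libraries, and in no WT day 10 or mESC library.

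Called changes at Sox2 came from 3 windows of 10 kb, which hold 4 of these 5 regions. The remaining region lies in chr3:34550001-34560000, a window too low to be tested. At day 10 strongest peaks covered 472, 0 and 309 bp of that window in WT A, B and C. They covered 0 bp of it in both KO libraries. The WT coverage lay in chr3:34557461-34558175, outside the named region. In the named region, all deposited peaks covered 1253 and 338 bp in KO1 and KO2 at day 10 and 0 bp in WT. In chr3:34540001-34550000, strongest peaks covered 779, 940 and 754 bp at day 0 and 2069, 1198 and 1891 bp at day 2 in WT A, B and C. In chr3:34560001-34570000 they covered 360, 399 and 865 bp, then 2068, 1092 and 1840 bp. In chr3:34650001-34660000 they covered 616, 1325 and 769 bp, then 2623, 2273 and 2871 bp. These 3 windows were at 0 bp in every WT day 10 library. Day 2 lay above day 0 in each, and the rise passed the test in the last alone, by 1.24 (SE 0.29, limma, adjusted p = 0.0186). That call was lost without WT D0 A, D2 A or D2 C, with limma adjusted p between 0.0627 and 0.0776. The fall to day 10 passed in all 3 windows, with limma adjusted p of 7.58e-05, 0.000433 and 1.86e-05 against day 2 and of 0.00028, 0.00616 and 0.000157 against day 0. All 3 windows reached the mean of 500 bp in the WT fit only through day 2, so their calls that involve day 2 are descriptions.

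KO cells kept coverage in these 3 windows at day 10. KO1 and KO2 covered 4542 and 2307 bp of the Sox2 locus at day 0, 5408 and 3483 bp at day 2 and 4612 and 5393 bp at day 10. At day 2 they lay below all WT libraries (difference -0.87 on the log2 scale) and at day 10 above all of them (1.30), each with an exact permutation p of 0.1 (two-sided, n = 2 and 3). Groups did not overlap in these directions in 9.43% and 23.8% of tiles. At day 10, KO1 and KO2 covered 1266 and 1747 bp of chr3:34540001-34550000, 1803 and 1232 bp of chr3:34560001-34570000, and 1543 and 1375 bp of chr3:34650001-34660000, where WT cells had 0 bp. The limma adjusted p of KO against WT at day 10 were 0.000312, 0.00186 and 0.000252. In the same windows KO and WT were not called different at day 0 or day 2.

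Under the strongest peaks, the Nanog cluster had more bp covered at day 2 than Sox2, a locus of the same length, in each WT library. Pou5f1 is a shorter window, so its bp are not on the same footing. With all deposited peaks, 13.9, 15.2 and 10.1% of the cluster was covered in WT A, B and C at day 2. The shares were 19.6, 21.7 and 13.5% at Pou5f1 and 12.1, 10.5 and 11.5% at Sox2. Strongest peaks covered 2567, 4793 and 3715 bp in WT A, B and C at day 0 (3692 ± 1113 bp, SD, n = 3), 13911, 16586 and 9572 bp at day 2 (13356 ± 3540 bp, SD, n = 3) and 2804, 1663 and 533 bp at day 10 (1667 ± 1136 bp, SD, n = 3). Day 2 lay above both other days, while days 0 and 10 overlapped. The exact permutation test of F over the days gave p = 0.00714 (two-sided, n = 9). The difference from day 0 to day 2 was 1.81 on the log2 scale, and 1.39% of 135 kb tiles had a larger one. From day 2 to day 10 it was -3.05, and 0.674% of tiles had a lower one. Groups did not overlap in these directions in 12.7% and 25.0% of tiles. Day 10 minus day 0 was -1.24 (exact permutation test, two-sided, p = 0.200, n = 3 and 3).

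Within the cluster, day 2 peaks lay along most of its length. The region chr6:122559039-122560723, near the start of the cluster, had a -log10 p of 36.4, 43.9 and 31.7 in WT A, B and C at day 2. At day 0 it had a peak in WT C, KO1 and KO2 but not in WT A or B. At day 10 it had none in WT cells, and a -log10 p of 48.7 in KO1 and 8.09 in KO2. Not all regions of the cluster were lost: chr6:122548309-122549743, without a WT peak at day 0, had peaks in all 5 day 2 libraries and kept 725 and 573 bp in WT A and B at day 10. The region chr6:122636524-122637622 kept 251 and 229 bp in the same libraries.

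Of the 10 kb windows in the cluster, chr6:122610001-122620000 held the most coverage in a WT library. Its strongest peaks covered 343, 324 and 269 bp at day 0, 3616, 3263 and 1319 bp at day 2, and 0 bp at day 10 in WT A, B and C. It rose by 2.25 to day 2 (SE 0.37, limma, adjusted p = 0.00402) and fell to 0 bp at day 10 (limma, adjusted p = 7.55e-05 against day 2 and 0.0139 against day 0). The window chr6:122550001-122560000 covered 944, 1024 and 1400 bp at day 0, 1523, 2586 and 1513 bp at day 2 and 0 bp at day 10. It was not called between days 0 and 2 and fell at day 10 (limma, adjusted p = 0.000106 against day 2 and 0.000209 against day 0). In chr6:122540001-122550000, WT libraries had 327, 585 and 610 bp at day 0, 1578, 2431 and 1655 bp at day 2 and 725, 843 and 307 bp at day 10. In chr6:122620001-122630000 they had 0, 0 and 245 bp, then 1410, 1529 and 1358 bp, then 925, 0 and 0 bp. Both windows rose to day 2, by 1.41 (SE 0.34) and 2.41 (SE 0.70) on the log2 scale (limma, adjusted p = 0.0226 and 0.0429). A window between them, chr6:122570001-122580000, had 0, 550 and 590 bp at day 0, 2131, 2006 and 754 bp at day 2, and 0, 262 and 0 bp at day 10. The windows that start at 122540001, 122570001 and 122620001 fell from day 2 to day 10, with log2 differences of -0.97 (SE 0.34), -2.46 (SE 0.63) and -1.96 (SE 0.70) (limma, adjusted p = 0.0434, 0.0112 and 0.0436). Those that start at 122570001, 122610001 and 122620001 reached the mean of 500 bp only through day 2, so their calls that involve day 2 are descriptions. The rise at 122540001 was lost without WT D0 A, D0 B, D2 B or D2 C, and its fall without D2 A, D2 B, D2 C, D10 A or D10 C. The rise at 122620001 was lost without D0 A or D0 B, and its fall without D10 B or D10 C.

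In KO cells the Nanog cluster differed between the 2 lines at day 2 and stayed covered at day 10. KO1 and KO2 covered 2966 and 2605 bp at day 0, 13529 and 3768 bp at day 2, and 12086 and 4650 bp at day 10. At day 2 KO1 lay within the WT range and KO2 below it (difference -0.84, exact permutation test, two-sided, p = 0.400, n = 2 and 3), and without KO2 the difference was 0.05. At day 10 both lay above WT (2.27, exact permutation p = 0.200, n = 2 and 3), and 3.58% of tiles had a larger difference. Groups did not overlap in this direction in 23.8% of tiles. At day 10, chr6:122550001-122560000 held 2980 and 1122 bp and chr6:122610001-122620000 held 2882 and 789 bp in KO1 and KO2, against 0 bp in WT (limma, adjusted p = 0.000179 and 0.00134).

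**Figure D1:**
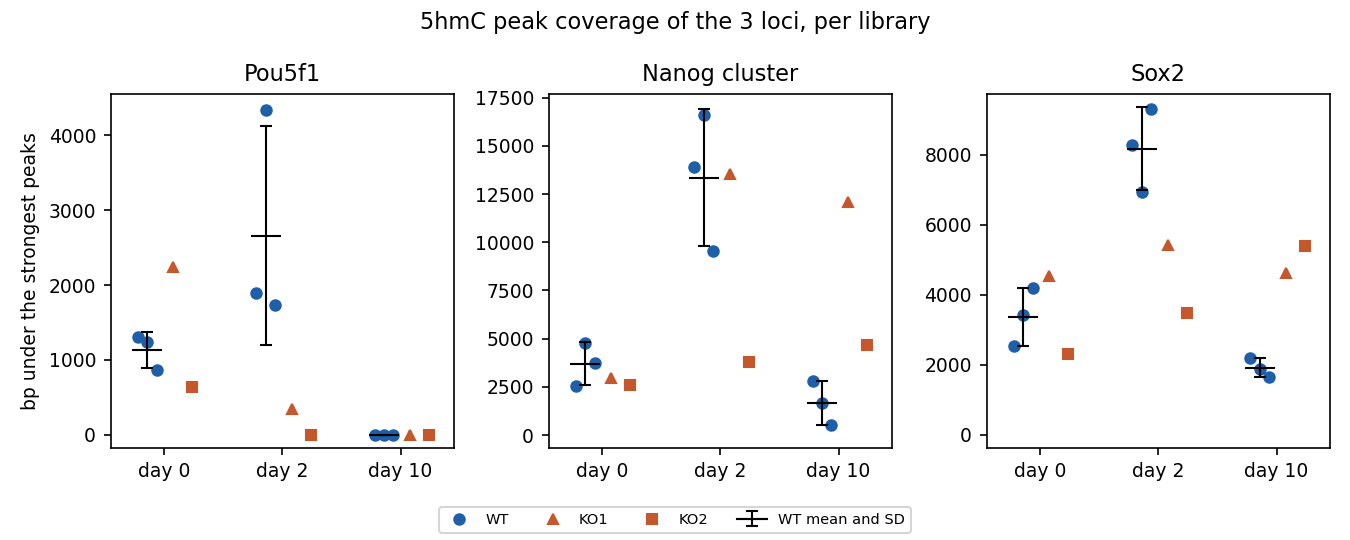
Coverage in bp under the 55130 strongest peaks of each library (y axis) at days 0, 2 and 10 for the 3 loci; circles are WT libraries, black bars their mean and SD (n = 3), and triangles and squares are KO1 and KO2. At day 10 the Sox2 locus has 1651 to 2203 bp in WT and 4612 and 5393 bp in KO, and Pou5f1 is at 0 bp in all 5 libraries.

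Across the 3 loci, all 31 windows of 10 kb were counted. A filter of at least 500 bp of mean coverage left 10 in the fit of WT libraries and 9 in the fit of all 15, and most entered through their day 2 level, so these counts are descriptions. At an unadjusted limma p under 0.05 no window was added to the counts of 0 given next. From day 0 to day 2, 5 of the 10 rose and 0 fell (14.8% and 2.98% of all windows tested). From day 2 to day 10, 9 fell and 0 rose (33.2% and 13.8%). Between day 0 and day 10, 6 fell and 0 rose (27.1% and 22.7%). KO exceeded WT at day 10 in 5 of 9 windows and was lower in 0 (20.8% and 5.06%). The change from day 2 to day 10 was more positive in KO than in WT cells in 6 of 9 and more negative in 0 (9.49% and 1.68%). At day 0, 0 of 9 were called in either direction (0.0381% and 0.0127%). Over all 31 windows, of which 29 had any coverage, WT day 2 lay above day 0 without overlap in 13 and above day 10 in 14, and day 10 lay above day 2 in 2. Among the 103089 windows of the genome with any coverage these shares were 10.1%, 15.9% and 8.65%. At day 2, KO was called higher in 0 windows (0% of all) and lower in the 1 at Pou5f1. In the profile by window, the KO libraries covered the highest WT day 2 windows of Sox2 at day 10 and none at Pou5f1. In the Nanog cluster KO2 had 0 bp at day 10 in chr6:122560001-122570000, chr6:122570001-122580000 and chr6:122620001-122630000, and at 122570001 KO was not called different from WT (0.66, SE 0.91, limma, adjusted p = 0.624).

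**Figure D2:**
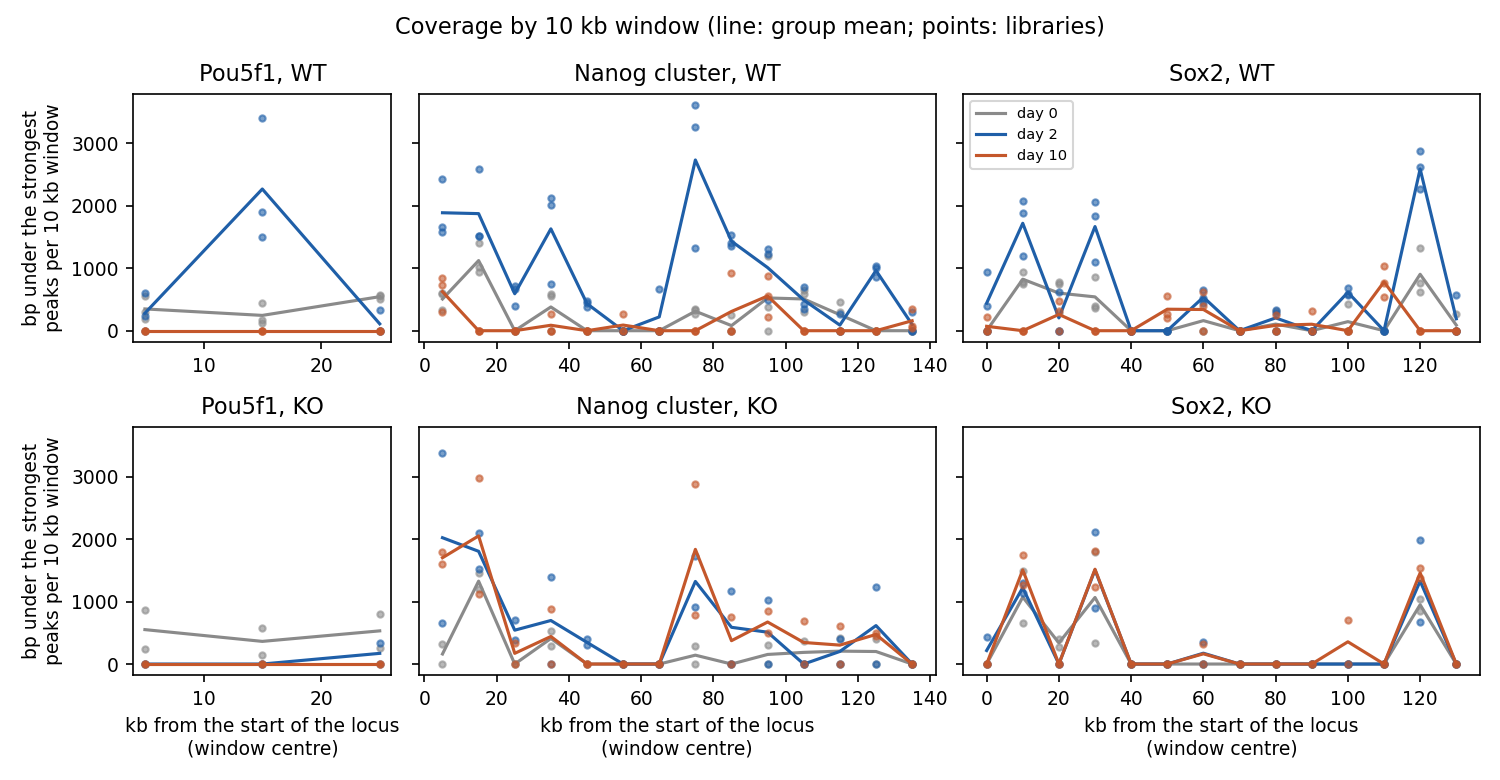
Coverage in bp under the strongest peaks of each 10 kb window (y axis) against the window's centre in kb from the start of the locus, for WT (top) and KO (bottom); lines are group means at days 0, 2 and 10 and points are libraries. In the last high window of Sox2, WT libraries have 2273 to 2871 bp at day 2 and 0 bp at day 10, and KO libraries have 1375 and 1543 bp at day 10.

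Some windows below the filter, picked out after their values were seen, held lower coverage of the same form. The p-values given for them and for the Pou5f1 window below are descriptions, since the same values picked the windows. In the Nanog cluster, chr6:122660001-122670000 had 1028, 1005 and 857 bp in WT A, B and C at day 2 and 0 bp on both other days, and without the filter the limma adjusted p was 0.00139 against day 0 and 0.000266 against day 10. There, chr6:122560001-122570000 had 660, 391 and 723 bp at day 2, again with 0 bp on the other days (limma without the filter, adjusted p = 0.00331 and 0.0017). The Pou5f1 window chr17:35650001-35660000 went the other way, from 564, 510 and 560 bp at day 0 to 0, 329 and 0 bp at day 2 (limma without the filter, adjusted p = 0.0446). With all deposited peaks it turned round, with 564, 911 and 560 bp at day 0 and 1831, 1908 and 1031 bp at day 2.

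Peak presence was also followed region by region, over all deposited peaks merged into 112 regions (15 at Pou5f1, 47 at Sox2 and 50 in the Nanog cluster). Of these, 53 had a peak in all 3 WT day 2 libraries (7, 21 and 25). No WT day 0 library had a peak in 31 of the 53, or 58.5%, against 32.4% of 73526 such regions in the genome. No WT day 10 library had a peak in 46 of them, or 86.8%, against 54.3% in the genome. In 26 regions both held, so that among WT libraries a peak was present at day 2 alone. KO lists played no part in this count, and some of these regions had KO peaks on other days. The share of such regions in the genome was not counted. The 13 regions with a peak in all 3 WT day 0 libraries were without one in WT cells at day 10, where 24.9, 21.2 and 14.7% of 37615 such regions of the genome had a peak in A, B and C. KO1 had a day 10 peak in 10 of the 13 (76.9%, against 76.5% in the genome) and KO2 in 6 (46.2%, against 46.9%). No test was made of these shares, since neighbouring regions share libraries and the loci were chosen with results of these data known.

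KO cells had a day 10 peak in many of these regions, though some of them had no day 2 peak in the same KO line. Of the 53, WT A, B and C had a peak in 6, 4 and 0 at day 10, and KO1 and KO2 in 38 and 29. As percentages these are 11.3, 7.55 and 0 in WT, against 36.7, 31.9 and 22.3 in the genome, and 71.7 and 54.7 in KO, against 78.1 and 65.7. The loci thus lay below the genome in all 5 libraries, by more in WT than in KO cells. Of the 46 regions without a WT day 10 peak, 21 had one in both KO lines, 34 in KO1, 24 in KO2 and 9 in neither. The shares of 73.9% in KO1 and 52.2% in KO2 lay close to those over the 39919 such regions of the genome, 76.7% and 53.6%. At day 2, KO1 had a peak in 39 of the 46 (84.8%, against 84.1% in the genome) and KO2 in 26 (56.5%, against 62.3%).

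**Figure D3:**
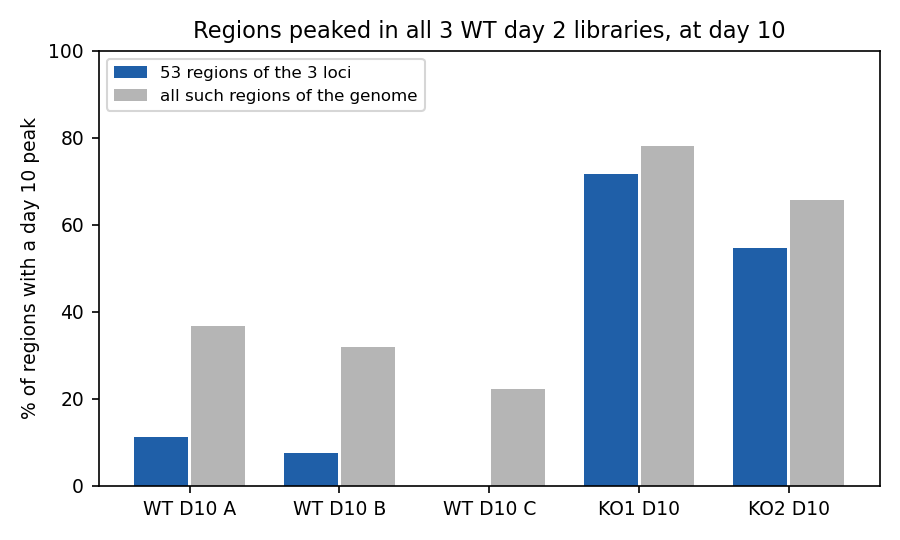
Percentage of regions with a peak in all 3 WT day 2 libraries that also had a peak in each day 10 library (x axis), for the 53 regions of the 3 loci (blue) and the 73526 of the whole genome (grey). WT libraries reach 11.3% at most at the loci, and KO1 and KO2 reach 71.7% and 54.7%.

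A smaller group of regions appeared only late. In WT cells 8 regions, 6 at Sox2 and 2 in the Nanog cluster, had a peak in at least 2 day 10 libraries and in no day 0 or day 2 library. None of the 8 had a peak in KO1 or KO2 at day 10, and 2 had one in the mESC list of 12 h. Across the genome there were 24473 such regions among 360970, a share near that of the 8 among 112 here. Of the 24473, 1.27% had a peak in KO1 and 12.4% in KO2 at day 10. In the mESC lists of 0, 12 and 72 h, 4.86, 16.9 and 25.2% of them had a peak, against 0, 25.0 and 0% of the 8. At Sox2, 3 of them had a peak in all 3 WT day 10 libraries and in no other list: chr3:34557461-34558175, chr3:34625832-34626293 and chr3:34646943-34647824. The last had a -log10 p of 10.2, 9.09 and 11.9 in WT A, B and C. Its window, chr3:34640001-34650000, held 546, 1031 and 768 bp of strongest peaks at day 10 and 0 bp in every other pre-iPSC library, and it was too low on average to pass the filter. The single regions were picked out after their values were seen.

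The mESC lists held few peaks at these loci, as single libraries without replicates. At 0, 12 and 72 h they held 16, 7 and 2 peaks, of which 2, 0 and 0 lay at Pou5f1, 8, 2 and 1 at Sox2, and 6, 5 and 1 in the Nanog cluster. Relative to each list's own density in the genome, the loci held 4.57, 1.83 and 0.729 times as many peaks per Mb. The mESC peak that ranked highest in its list was that of the Nanog cluster at 12 h, with a -log10 p of 13.0, and 5.39% of its list was stronger. Of the 53 regions of WT day 2, the mESC lists had a peak in 8, 3 and 0, or 15.1, 5.66 and 0%, against 16.7, 14.4 and 4.48% of such regions in the genome. A label states that peaks were not called for these samples although lists are present, and their depth was not read, so no level was compared with the pre-iPSCs.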

How the data were processed

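5hmC was captured from sonicated genomic DNA through a glucose-linked biotin and sequenced, per the labels' protocols. The authors' tools were Bowtie, SAMtools and MACS2, and the build was mm9, per the submitters' processing notes. Which versions they ran is not given in the sources used here. Each deposited list holds the authors' score, the fold enrichment (a linear ratio), and -log10 of p and of q for peaks called per library; the run names carry a p threshold of 0.0001. Here they rank, filter or describe peaks of the same list. The 149 peaks outside chromosomes 1 to 19 and X were left out.

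Coverage under the 55130 strongest peaks per library was taken as log2(bp + 200). Loci were compared by 21 two-sided exact permutation tests over libraries, unadjusted. Windows of 10 kb were scaled to the mean total coverage, filtered at a mean of 500 bp and fitted genome-wide with limma 3.58.1 in R 4.3.3 (robust, with a trend) at a Benjamini-Hochberg level of 0.05: 9 WT libraries between days, all 15 pre-iPSC libraries for KO against WT. The code was tested on simulated data. Windows named singly are those called in any contrast; regions are the 5 per locus with peaks in the most libraries. The other pluripotency genes that had been listed were not analysed here, since no mm9 annotation was used. Alternatives were all deposited peaks, a -log10 q of at least 5, no filter, 5 kb windows, a pseudocount of 50 bp and centring on the median window. Others were wider loci, loci scaled to the mean total coverage, a replicate block and leaving out each library. The members and lists were chosen with earlier results of these data known. Absolute depth is unknown, so no interval from counts is given.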

Additional observations from a re-analysis of the deposited data

Results flagged for a closer look

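The change from day 2 to day 10 differed between KO and WT cells in 6 of the 9 windows tested at these loci, by the interaction of arm and day in the limma fit of all 15 libraries (Benjamini-Hochberg adjustment; 9.49% of all windows were called in this direction). The adjusted p was 0.00523 for chr6:122550001-122560000 and 0.00699 for chr6:122610001-122620000 in the Nanog cluster. At Sox2 it was 0.00453 for chr3:34540001-34550000, 0.0218 for chr3:34560001-34570000 and 0.00168 for chr3:34650001-34660000. In these 5 windows WT coverage ended at 0 bp at day 10 and both KO libraries stayed covered. At Pou5f1 the adjusted p was 0.0117 for chr17:35640001-35650000, but there both KO libraries were at 0 bp at day 2 and at day 10, so the difference is that WT cells had coverage at day 2 to lose. That window passed the filter only through WT day 2, so its call is a description. The call at chr3:34560001-34570000 was lost without WT D2 A, WT D2 C, KO1 D10 or KO2 D2 (limma, adjusted p between 0.0525 and 0.0807), and those there and at Pou5f1 were lost when centred on the median window (limma, adjusted p = 0.0888 and 0.0534). The cause was not tested.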

How the results depend on the processing

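Of 390 alternative values for 32 single-window results, 334 kept their direction and side of the threshold, 56 lost the threshold and 0 reversed. Of 482 for the other results, 433 stayed the same. KO minus WT at Pou5f1 at day 10 was 2.77 with every deposited peak, 2.81 where -log10 q was at least 5 and -2.50 in the widened window, where day 10 minus day 0 turned to 0.59 and KO minus WT at day 0 to -0.06. KO minus WT at Sox2 at day 0 was 0.06 with all deposited peaks and 0.05 with the q limit. Windows that rose from day 0 to day 2 numbered 9 with all deposited peaks, 2 with the q limit or centred on the median window, and 3 with a pseudocount of 50 bp or in the fit of 15 libraries. The window lower in KO at day 2 was called in 0 cases with all peaks, with the q limit, without the filter or centred on the median. Without the filter, 1 window fell to day 2, 2 rose to day 10 against day 2 and 2 against day 0, KO was lower at day 10 in 2, and the interaction was negative in 1. Windows above at day 10 numbered 1 and 1 with the q limit, and 1 (against day 2) and 2 (against day 0) at 5 kb. Counting strongest peaks alone, 25 regions were in every WT day 2 list, of which 21 had none at WT day 10, 14 none at WT day 0, 18 a KO1 day 10 peak and 14 a KO2 day 10 peak.

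Leaving out single libraries, KO minus WT at day 0 ranged from -0.65 to 0.89 at Pou5f1 (-0.65 without KO1, -0.04 without WT C) and from -0.48 to 0.44 at Sox2 (0.44 without KO2, 0.14 without WT C). At day 2 in the Nanog cluster it ranged from -1.74 to 0.05. Windows rising to day 2 ranged from 2 to 6, those falling to day 10 from 5 to 8 (5 without WT D2 B), the window lower in KO at day 2 from 0 to 1, and late regions from 3 to 9 (3 without WT D10 A and 4 without WT D10 B). The cause was not tested.

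Libraries of the same letter did not deviate together over the tested windows (correlations from -0.04 to 0.05). These values cannot show whether libraries of a letter share a culture or a batch. With the replicate block, the test over days in the Nanog cluster gave an exact permutation p of 0.0556, and 4 windows rose to day 2, 7 fell from day 2 to day 10 and 5 fell from day 0 to day 10. Depth limits what a missing peak can show.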
